A study of Mus musculus with 15 samples.

Results

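The 10 Sox genes described here are Sox1, Sox2, Sox3, Sox4, Sox5, Sox6, Sox8, Sox9, Sox11 and Sox21, taken by name as transcription factors of neural progenitors and young neurons, out of 21889 genes in the gene count tables. Of them, 9 had a row there, and these 9 passed the filter on low counts, as did 15259 genes in all. Sox1 (ENSMUSG00000096014) could not be matched to the gene table by its Ensembl identifier and was not analysed here. The study measured poly(A) RNA in 15 mouse cerebellar libraries, 3 per group. Granule neuron precursors, the cells that divide on the surface of the young cerebellum and become granule neurons, were taken from E15.5 embryos with the genotype label Math1-GFP, and from WT (wild-type) mice on postnatal days 1, 7 and 14 (P1, P7 and P14). Medulloblastoma cells (MB) came from Ptch1 heterozygous mice, with no age given. Ptch1 encodes the receptor that holds Sonic hedgehog signalling down, and Math1 is another name of Atoh1, the transcription factor that marks granule neuron precursors. All cells were purified on Percoll, a density medium. The labels name no marker sort and do not say whether the GFP was used to select the E15.5 cells. Nor do they say whether the libraries of a group came from separate animals or tumours, so p-values measure the spread between libraries, which may be technical. Age and genotype change together between E15.5 and the postnatal groups and cannot be told apart. Tumour state and genotype change together between MB and the WT groups, and the age of MB is not known. These cannot be told apart either.

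Sox proteins bind DNA through an HMG box and are sorted into groups by the likeness of that domain. The SoxB1 factors Sox1, Sox2 and Sox3 keep neural cells in a progenitor state, and the related SoxB2 factor Sox21 counteracts them. The SoxC factors Sox4 and Sox11 act as cells leave the cycle and switch on neuronal genes. The SoxE factors Sox8 and Sox9 act in glia and, with the SoxD factors Sox5 and Sox6, in oligodendrocyte precursors and in cartilage. In the cerebellum Sox2 and Sox9 are known from Bergmann glia and from progenitors.

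Sequences just upstream of the transcription start are shown for 4 members that bear the main pattern below: Sox2, Sox8 and Sox21, which rose between E15.5 and P1, and Sox4, which fell. Each run is the 250 bases before the start, 5′ to 3′ on the strand of the gene, from RefSeq's annotation of GRCm38.p6, whose table held 8 of the 10 members. The bases just after the start were found in a reference transcript for Sox8, Sox21 and Sox4 and not for Sox2, whose start is thus less certain. The positions are chr3:34649745-34649994 on the plus strand for Sox2, and on the minus strand chr17:25570687-25570936 for Sox8, chr14:118237031-118237280 for Sox21 and chr13:28953700-28953949 for Sox4. Capitals mark matches on either strand to ACAAAG or ACAAT, letters that Sox proteins bind, to CANNTG, the E-box bound by Atoh1 and its relatives, and to CCACCC, part of the site of the Gli factors of Sonic hedgehog signalling.
Sox2: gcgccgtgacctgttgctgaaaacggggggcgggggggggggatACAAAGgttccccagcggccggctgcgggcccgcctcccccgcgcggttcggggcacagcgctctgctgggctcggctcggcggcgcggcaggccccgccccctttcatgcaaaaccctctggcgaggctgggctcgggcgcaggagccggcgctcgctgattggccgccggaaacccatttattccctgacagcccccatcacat
Sox8: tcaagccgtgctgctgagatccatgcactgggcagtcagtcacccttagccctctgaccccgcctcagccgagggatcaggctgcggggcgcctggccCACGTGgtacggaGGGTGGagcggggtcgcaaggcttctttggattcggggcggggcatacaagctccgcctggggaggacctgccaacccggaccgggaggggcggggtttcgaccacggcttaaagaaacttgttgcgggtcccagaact
Sox21: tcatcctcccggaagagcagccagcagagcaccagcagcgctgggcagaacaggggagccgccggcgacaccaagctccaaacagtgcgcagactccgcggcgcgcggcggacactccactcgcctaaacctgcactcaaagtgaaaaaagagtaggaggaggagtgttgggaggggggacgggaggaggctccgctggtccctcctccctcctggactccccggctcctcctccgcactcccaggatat
Sox4: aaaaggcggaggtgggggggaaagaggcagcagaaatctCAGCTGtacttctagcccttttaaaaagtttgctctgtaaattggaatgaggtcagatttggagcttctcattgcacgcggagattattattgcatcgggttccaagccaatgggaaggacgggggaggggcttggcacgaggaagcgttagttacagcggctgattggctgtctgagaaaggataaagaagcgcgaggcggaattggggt
The Sox2 run holds 1 ACAAAG, which 16.5% of 32851 such promoter windows hold. The Sox4 run holds 1 CANNTG, as CAGCTG, and so does the Sox8 run, as CACGTG, against 66.2% of all windows. The Sox8 run also holds 1 CCACCC match, read on the other strand, a motif found in 28.1% of windows. None of these letters occurs in the Sox21 window, and ACAAT, found in 27.7% of windows, occurs in none of the 4 windows. The Sox2 window holds 27 CG dinucleotides, more than 91.4% of all windows, where the median is 6. The windows of Sox8, Sox21 and Sox4 hold 18, 17 and 11. A match describes the letters and is no evidence of binding.

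Library totals ran from 12597472 to 43443132 counts in genes. The labelled cell type was checked on 7 precursor markers, all of which had counts in every library. Together they summed to 2282 to 3396 CPM in E15.5 libraries, 2795 to 4403 in postnatal ones and 3230.5 to 4649 in MB. They did not follow 1 course, as examples chosen after their values were seen show. From E15.5 to P14 the mean of Zic1 went from 1105 to 1926 CPM. That of Gli1, a target of Sonic hedgehog signalling, went from 13.8 CPM in E15.5 to 125 in P1 and 130 in P7. It was lower again in P14, at 66.9 CPM, and the MB libraries held 208 to 781 CPM of Gli1. Atoh1 fell from E15.5 to P14. Atoh1 was at 129 ± 8.53 CPM in the E15.5 group, 47.7 ± 21.03 in P1, 30.6 ± 7.85 in P7, 11.9 ± 1.11 in P14 and 279.8 ± 43.04 in MB (CPM, counts relative to a library's TMM-scaled total, SD, n = 3). The 6 granule neuron markers summed to 605 to 897 CPM in E15.5 libraries, 2239 to 2340 in P14 and 630 to 857 in MB. In P1 and P7 libraries they summed to 739 to 1681 and 1779 to 2486 CPM. The word precursor follows the labels below, also for P14. Markers of other cells were present too. The 9 astroglial markers summed to 349 to 371 CPM in E15.5 libraries and 2092 to 5190.4 in postnatal ones, and the 9 oligodendrocyte lineage markers to 72.2 to 106 and 598 to 6287. In 1 E15.5 library 1 gene of the latter list had no count, and no astroglial marker was at 0 in any library. The 7 pericyte and fibroblast markers summed to 22.7 to 37.2 and 379 to 1033 CPM. Other lists were higher in E15.5. The 6 GABAergic interneuron markers summed to 465 to 638 CPM in E15.5 libraries and 168 to 217 in P1. The 5 unipolar brush and nuclear cell markers summed to 201 to 432 and 67.7 to 101 CPM. The 5 choroid plexus markers varied widely within groups, at 403, 10398 and 3955 CPM in P1 replicates 1 to 3 against 95.8 to 372 in E15.5 libraries. The library labelled P1 replicate 3 also stood apart from the other P1 libraries, with 3817 CPM of oligodendrocyte lineage markers against 598 and 978. Its granule neuron markers summed to 1681 CPM against 758 and 739, and its Atoh1 was at 24.5 CPM against 65.4 and 53.3. Its precursor markers together summed to 3235 CPM, against 3280 and 2795. MB replicate 1 stood apart from the other tumours: its slope of log2 level on GC content was -0.61 per 10 percentage points, while in the other libraries this slope ran from -0.269 to 0.236. A counting difference left the reads of a few genes such as Tsnax out of the gene table in some libraries (E15.5 replicates 1 and 3, MB replicate 1 and each P7 library). These libraries and the remaining ones are called the 2 counting sets, and a fit inside 1 set compares groups only through libraries of that set. The members kept theirs: the gene table held 88.6% to 100% of a member's transcript table count in these libraries and 88.8% to 100% in the others.

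**Figure D1:**
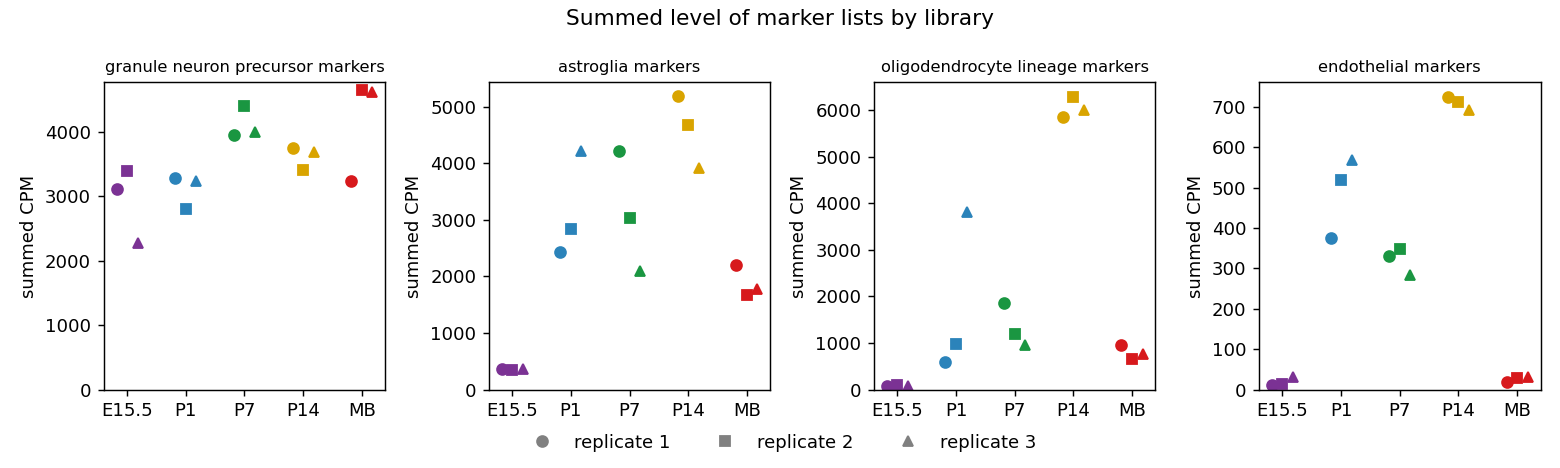
Summed CPM (y axis) of 4 marker lists in each library (points, shaped by replicate number) of the 5 groups (x axis). Astroglial markers were at 349 to 371 CPM in E15.5 libraries, and the library labelled P1 replicate 3 had 3817 CPM of oligodendrocyte lineage markers.

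Among the members themselves, levels were compared per kilobase of exon, over the authors' transcript models. In E15.5 precursors Sox4 led with 165 ± 18.9 CPM per kb (SD, n = 3), 66.3% of the sum over the 9 genes, and Sox11 followed with 60.1 ± 14.2. Sox2 was at 9.23 ± 1.64 CPM per kb in that group, and Sox3, Sox6, Sox8 and Sox21 had means between 0.444 and 1.04. In the postnatal groups the length-scaled means of Sox11 (97.7 to 104 CPM per kb) and Sox4 (78.8 to 90.6) came first, then those of Sox2 (24.6 to 34.8) and Sox9 (20.1 to 28.5), and Sox3 came last (1.17 to 2.89). In P7 Sox11 and Sox4 did not differ beyond their spread, since Sox11 had an SD of 65.3 CPM per kb. In MB the order was Sox4 (108 ± 20.1 CPM per kb), Sox11 (87.9 ± 63.6) and Sox9 (46.8 ± 34.1), and the gap from Sox9 to Sox2 (16.9 ± 8.17) was smaller than the SD of Sox9. The SoxC pair had the 2 highest means of the set in each of the 5 groups.

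**Figure D2:**
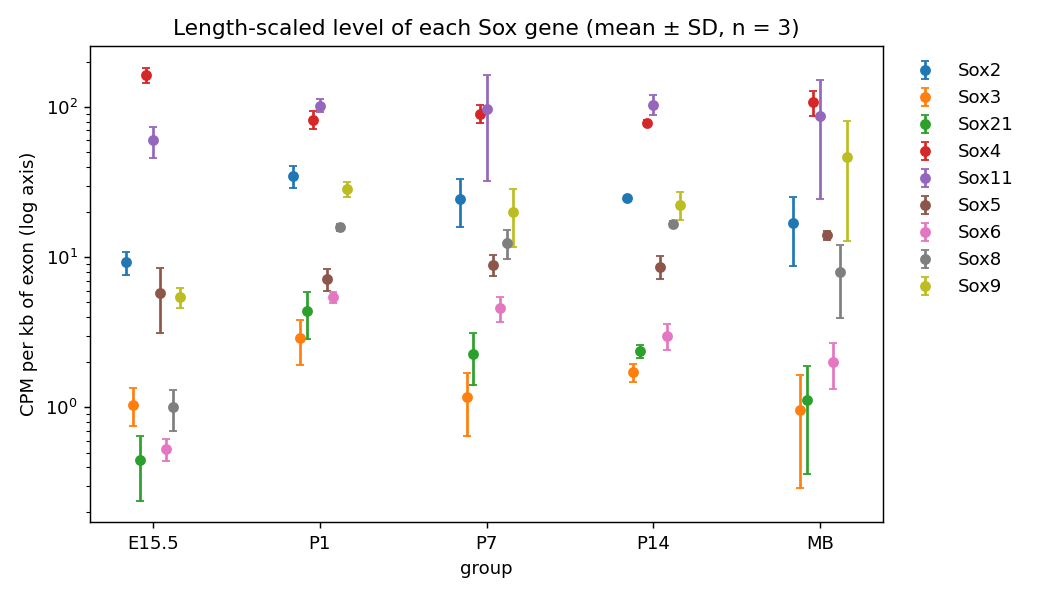
CPM per kilobase of exon (log y axis) of the 9 Sox genes (colours) in each group (x axis), as mean and SD of 3 libraries. Sox4 and Sox11 have the highest means in each group, and Sox3, Sox6, Sox8 and Sox21 lie between 0.444 and 1.04 in E15.5 precursors.

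P1 against E15.5 opens the age series, which was made to find genes that go up as precursors differentiate. Of the 9 members, 6 rose (Sox2, Sox3, Sox6, Sox8, Sox9 and Sox21), 1 fell (Sox4), and Sox5 and Sox11 did not pass the test at a false discovery rate (FDR) of 0.05 by edgeR's quasi-likelihood test. Over all genes tested, 46.3% were called, 25.4% higher and 20.9% lower. The median log2 change of the members was 1.91, against 0.031 over all genes. In P7 against E15.5, which shares the E15.5 libraries, 5 members were called higher and Sox4 lower. There 37.8% of all genes were called, 21.6% higher and 16.2% lower. Sox3 was the member called in P1 and not in P7, a difference that was not itself called (P7 against P1, FDR 0.184 by edgeR).

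Of the SoxB factors, Sox2 (ENSMUSG00000074637, chromosome 3, 34548927 to 34551383 of build mm9, 1 exon) is the best-known keeper of the neural progenitor state. It was at 25.4, 18.04 and 24.6 CPM in E15.5 replicates 1 to 3 and at 93.04, 93.9 and 69.3 CPM in the P1 libraries. All P1 libraries lay above all E15.5 libraries, and the log2 change was 1.91 (SE 0.31, FDR 1.81e-04). Sox2 lies within the long noncoding gene Sox2ot, and the reads of the overlap cannot be assigned to either gene from these counts. Sox21 (ENSMUSG00000061517, chromosome 14, 118632454 to 118636252, 1 exon) went from 2.36, 0.835 and 1.86 CPM to 20.4, 19.3 and 9.99 CPM, again without overlap (log2 change 3.25, SE 0.57, FDR 3.42e-04). The library labelled P1 replicate 3 held the lowest P1 value of both genes, and without it the changes were 2.04 for Sox2 and 3.51 for Sox21. Sox3 (ENSMUSG00000045179, chromosome X, 58144545 to 58146605, 1 exon), the third SoxB1 gene, was at 1.57, 2.09 and 2.78 CPM in E15.5 libraries and at 7.64, 6.44 and 3.77 CPM in P1. Its call (log2 change 1.46, SE 0.54, FDR 0.0365) depended on single libraries. It was lost without E15.5 replicate 1 (1.27), 2 (1.43) or 3 (1.67) and without P1 replicate 1 (1.24) or 2 (1.40), and inside 1 counting set, where E15.5 replicate 2 is the only E15.5 library (1.51). It held without the library labelled P1 replicate 3 (1.70).

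Of the SoxE factors, Sox8 (ENSMUSG00000024176, chromosome 17, 25702837 to 25707631, 3 exons) had the largest change of the 9. It went from 2.75, 2.25 and 4.04 CPM in E15.5 libraries to 44.8, 49.9 and 47.7 CPM in P1, a 15.4-fold rise (log2 change 3.94, SE 0.38, FDR 1.91e-06). The P1 libraries were close to each other and far above all E15.5 libraries. Sox9 (ENSMUSG00000000567, chromosome 11, 112643538 to 112649074, 3 exons), a factor that starts and maintains glial fate, was at 21.2, 26.4 and 19.8 CPM in E15.5 libraries and at 121, 129 and 104 CPM in P1. Its log2 change was 2.40 (SE 0.51, FDR 0.00149), with no overlap between the groups. Without the library labelled P1 replicate 3 the changes were 3.94 for Sox8 and 2.48 for Sox9.

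The SoxD factors lack an activation domain of their own and work beside other Sox proteins. Sox6 (ENSMUSG00000051910, chromosome 7, 122614858 to 123182258, up to 17 exons) went from 5.15, 3.67 and 4.39 CPM to 47.9, 45.7 and 40.7 CPM, a 10.1-fold rise without overlap (log2 change 3.34, SE 0.27, FDR 4.66e-07). Sox5 (ENSMUSG00000041540, chromosome 6, 143776945 to 144158078, up to 15 exons) was at 40.9, 62.6 and 23.6 CPM in E15.5 libraries and at 45.7, 48.8 and 62.5 CPM in P1, and the groups overlapped. Its change of 0.31 (SE 0.27, FDR 0.367) was not called, but without E15.5 replicate 2 it was (0.70, FDR 0.0346 by edgeR), and without E15.5 replicate 3 it was -0.034. In P7 against E15.5 the change of Sox5 was 0.63 (FDR 0.0795). It was 1.02 and called without E15.5 replicate 2, and the fit inside 1 counting set, which leaves out the same library here, gave 1.02.

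Of the SoxC factors, Sox4 (ENSMUSG00000076431, chromosome 13, 29040788 to 29045582, 1 exon) was at 796, 876 and 695 CPM in E15.5 libraries and at 457, 365 and 365 CPM in P1, and all E15.5 libraries lay above every other library. Its log2 change was -0.996 (SE 0.18, FDR 5.45e-04), and it was -0.86 (FDR 0.00205) in P7 against E15.5. Sox11 (ENSMUSG00000063632, chromosome 12, 28025562 to 28027574, 1 exon) was at 121, 149.7 and 92.4 CPM in E15.5 libraries and at 215, 221 and 183 CPM in P1. The groups did not overlap, yet its change of 0.77 (SE 0.52, FDR 0.243) was not called in the fit of all groups, in which Sox11 varied widely in P7 and MB. In a fit of P1 and E15.5 alone it was called (0.79, FDR 0.0199 by edgeR).

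**Figure D3:**
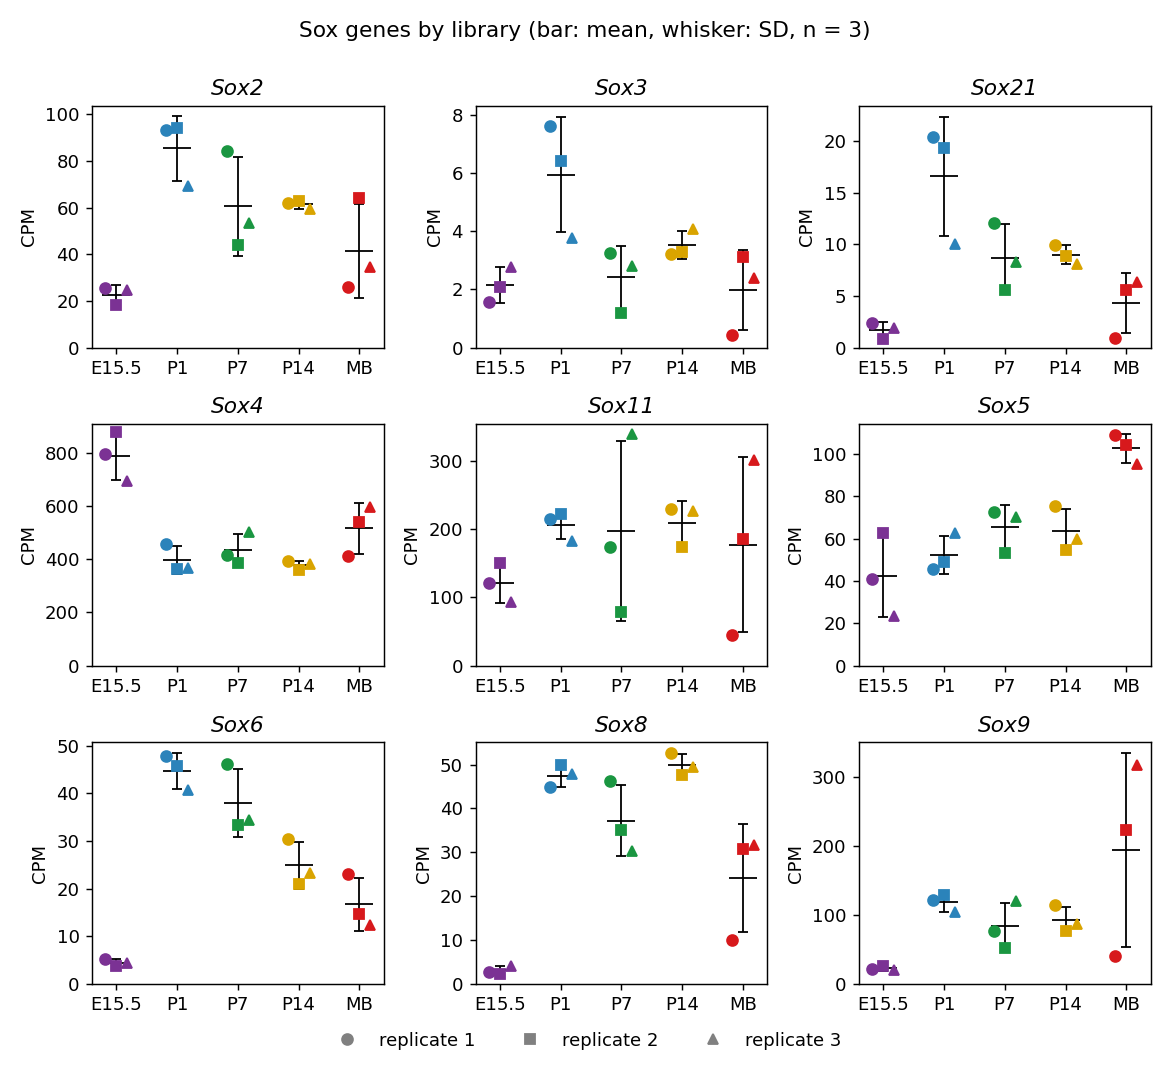
CPM (y axes, each from 0) of the 9 Sox genes in each library (points, shaped by replicate number) of the 5 groups (x axes), with the mean and SD of 3 libraries. Sox6 and Sox8 have no E15.5 library above 5.15 CPM, Sox4 is highest in E15.5, and MB replicate 1 is the lowest tumour for Sox2, Sox3, Sox4, Sox8, Sox9, Sox11 and Sox21.

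Genes that Sox factors are known to work with were followed as lists. All 12 glial genes linked to SoxE factors were called higher in P1 than in E15.5 libraries, among them Olig1, a factor of the oligodendrocyte lineage (log2 change 4.62, FDR 9.08e-06 by edgeR), and 5 of the 12 are also glial markers. All 9 astroglial markers and all 9 oligodendrocyte lineage markers were called higher as well, with median log2 changes of 3.88 and 3.94, in the same libraries in which Sox2, Sox8, Sox9 and Sox21 were higher. In RNA of a whole population, fewer cells of a type and less RNA per cell cannot be told apart, and the part of glial cells in the rise of these members was not tested. Of 12 neural progenitor genes 11 had a row, and 5 of them were higher and none lower, where 46.3% of all genes were called. Among the 5 were Hes1, a Notch-responsive repressor (3.27), and Fabp7, a radial glial lipid carrier (2.93). The median log2 change of this list was only 0.27, and in P7 against E15.5 3 of its genes were higher and 3 lower. Of 10 neuronal genes linked to SoxC factors, 5 were lower and 1 higher. Tubb3, the neuronal tubulin, went from 3754 ± 1326 to 629.8 ± 73.8 CPM (SD, n = 3, log2 change -2.58, FDR 7.05e-05 by edgeR). Stmn2, a tubulin-binding protein of growing axons, changed by -1.75, and Prox1, a homeobox factor, rose by 0.89. Of 8 cartilage genes that SoxE and SoxD factors control together, 5 were tested and 3 were higher. The one with the largest fitted change, Acan, which encodes aggrecan, had 4 counts in all E15.5 libraries together and 32 in P1, too few for a fold. Of the other 10 genes of the Sox family 6 were tested, of which 5 were higher and Sox12, the third SoxC gene, was lower (-0.999, FDR 0.00871 by edgeR). Sox10, the SoxE factor of oligodendrocytes, went from 0.264 ± 0.0364 to 22.7 ± 12.9 CPM (SD, n = 3), and Sox17, an endothelial factor, rose by 4.97. The 6 endothelial markers and the 7 pericyte and fibroblast markers were all called higher too, as were 4 of 5 choroid plexus markers, and the part of these cells in the members' values was not tested. All 6 GABAergic interneuron markers and all 5 unipolar brush and nuclear cell markers were called lower, and 4 of each without P1 replicate 3. The part of those cells in the fall of Sox4, Sox12 and the SoxC-linked genes was not tested. Without the library labelled P1 replicate 3, all 7 calls among the members held, as did those of the 12 SoxE-linked genes, the 9 astroglial and the 6 endothelial markers. In that fit 8 of the 9 oligodendrocyte lineage markers were higher, with a median of 3.08, 1 of 6 cartilage genes tested was higher, 4 of 8 other Sox genes were higher and 2 lower, and of the SoxC-linked genes 5 were lower and none higher, so that Prox1 was not called.

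**Figure D4:**
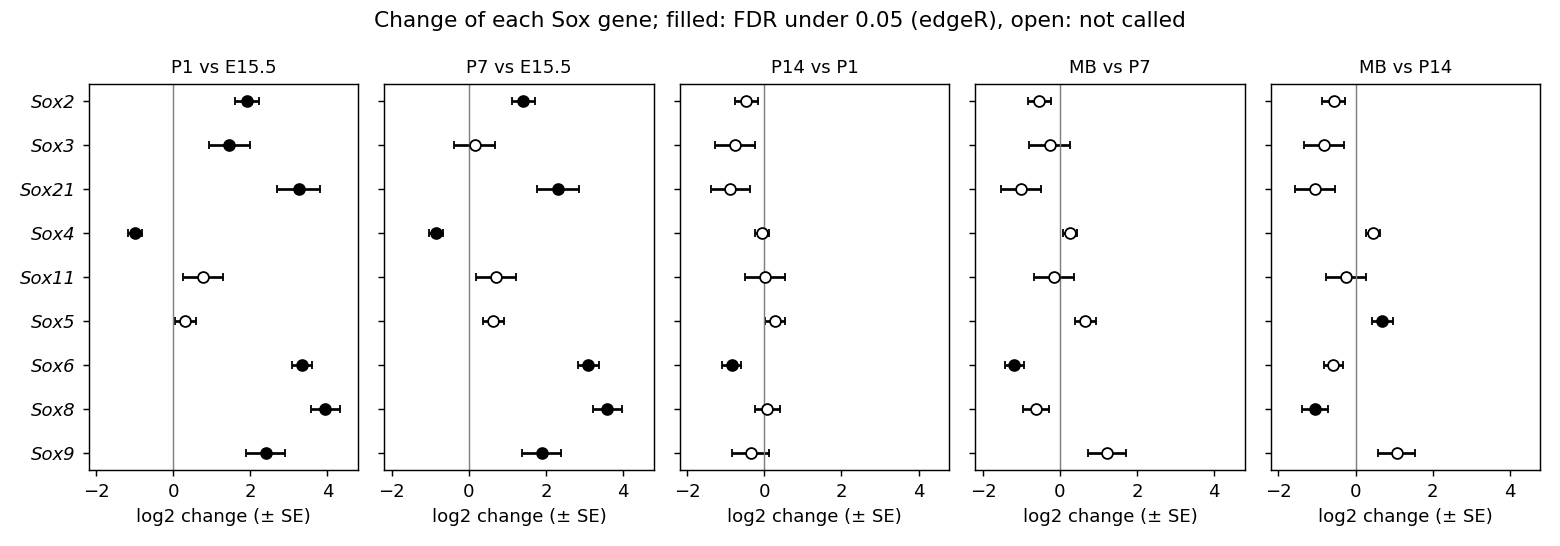
Log2 change and SE (x axes) of the 9 Sox genes (rows) in 5 comparisons (panels), with filled points for an FDR under 0.05 by edgeR. The P1 and P7 panels share the E15.5 libraries and show 7 and 6 filled points, the P14 against P1 panel 1 filled point, and the MB panels 1 and 2.

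Few members were called after P1. In P7 against P1 none of the 9 was called by edgeR or DESeq2 and 1 had an unadjusted p under 0.05 (Sox3, log2 change -1.30, FDR 0.184). Of all genes 3.15% were called there, 1.4% higher and 1.74% lower. In P14 against P7 again none was called by edgeR or DESeq2 and 1 had an unadjusted p under 0.05 (Sox6, -0.61, FDR 0.113). There 10.3% of all genes were called, 5.81% higher and 4.51% lower. In P14 against P1, 1 of 9 was called, lower, where 8.94% of all genes were called, 3.63% higher and 5.31% lower, so the share of the members lies near that background. That gene was Sox6, which keeps oligodendrocyte precursors from maturing early. It stood at 47.9, 45.7 and 40.7 CPM in P1, at 46.2, 33.4 and 34.4 in P7 and at 30.5, 20.9 and 23.3 in P14, and the P1 and P14 libraries did not overlap. Its log2 change from P1 to P14 was -0.85 (SE 0.24, FDR 0.0425). The call was lost without P1 replicate 1 (-0.80) or 2 (-0.83) and without P14 replicate 1 (-1.02), 2 (-0.73) or 3 (-0.80). It held without the library labelled P1 replicate 3 (-0.91, FDR 0.0326 by edgeR).

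No other member was called between postnatal ages. Sox8 was at 46.2, 35.04 and 30.4 CPM in P7 and at 52.5, 47.6 and 49.5 in P14, with a change of 0.071 (SE 0.33) from P1 to P14. Sox4 changed by -0.066 (SE 0.18) over that interval and was at 359 to 392 CPM in the P14 libraries. Sox2, at 62.1, 62.8 and 59.2 CPM in P14, lay below every P1 library, but its change of -0.48 (SE 0.30, FDR 0.322) was called only in a fit of P14 and P1 alone (FDR 0.0361 by edgeR). Sox21 was at 8.09 to 9.95 CPM in P14, with a change of -0.88 (FDR 0.284, and 0.0466 in that fit by edgeR). Sox3 was called after the GC correction, with -1.59 in P7 and -1.51 in P14, both against P1. Sox11 had its widest spread in P7, with 173, 78.4 and 338 CPM in replicates 1 to 3, and Sox9 took the same order there, at 77.1, 52.2 and 120.3 CPM. In the test of any difference among the 4 ages, 6 members were called (Sox2, Sox4, Sox6, Sox8, Sox9 and Sox21), where 55.7% of all genes were.

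Tumours were compared with P7 precursors, the age the study set beside them, and with P14. Sox6 was the member called in MB against P7, lower. There 34.5% of all genes were called, 13.7% higher and 20.7% lower. In MB against P14, Sox8 was called lower and Sox5 higher, while 50% of all genes were called, 22.9% higher and 27.2% lower. These shares of the members lie below the background. Both comparisons share the tumour libraries, and MB replicate 1 held the lowest tumour value of 7 members and the highest of Sox5 and Sox6.

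Sox6 stood at 23.05, 14.6 and 12.3 CPM in MB replicates 1 to 3, below all P7 libraries (log2 change -1.19, SE 0.24, FDR 0.00139). Against P14 its change was -0.58 (FDR 0.0594), and without MB replicate 1 it was -0.88 and called (FDR 0.00406 by edgeR). Inside 1 counting set, where MB replicate 1 is the only tumour, its change against P7 was -0.72 with an FDR of 0.0504 by edgeR. Sox5 was at 109, 104 and 95.2 CPM in the tumours, above every precursor library, the highest of which, a P14 library, had 75.6 CPM. Its changes were 0.65 against P7 (SE 0.27, FDR 0.0749) and 0.70 against P14 (SE 0.27, FDR 0.0430). The change against P7 was called in a fit of these groups alone (0.68, FDR 0.0291 by edgeR). It was called after the GC correction too (0.82, FDR 0.0214 by edgeR). The call against P14 was lost without P14 replicate 2 (0.60) or 3 (0.66) and without MB replicate 1 (0.66), 2 (0.69) or 3 (0.75). It was also lost with upper-quartile scaling (0.56) and with a replicate block (0.70, FDR 0.0594 by edgeR).

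Sox8 was at 9.92, 30.8 and 31.6 CPM in MB replicates 1 to 3, and all of them lay below the P14 libraries (log2 change -1.05, SE 0.33, FDR 0.0159). After a correction for GC content this change was -0.57 and not called, and in a fit of these groups alone it was -1.05 with an FDR of 0.0624 by edgeR. Sox9 was at 40.5, 223 and 318 CPM. MB replicates 2 and 3 lay above every precursor library, the highest of which had 129 CPM, and MB replicate 1 lay below all P7 and P14 libraries. Over all tumours the change was 1.22 against P7 (SE 0.49, FDR 0.0656) and 1.07 against P14 (FDR 0.0799). Without MB replicate 1 it was 1.70 (FDR 3.31e-04 by edgeR) and 1.55 (FDR 4.30e-04), both called. Inside 1 counting set, where MB replicate 1 alone stands against P7, it was -1.04 and called lower (FDR 0.0494 by edgeR). With the GC correction it was 1.49 and 1.42, both called, and without P7 replicate 3 it was 1.58 against P7 and called. DESeq2, with all libraries kept, also called Sox9 higher than in P7 (1.23, FDR 0.0290 by DESeq2).

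Sox11 had the same order over the tumours as Sox9, at 44.7, 186 and 300.2 CPM, and its change of -0.15 against P7 (SE 0.52, FDR 0.855) was not called. Without MB replicate 1 it was 0.31 and without P7 replicate 3 0.49, neither called, and inside 1 counting set, where MB replicate 1 is the only tumour, it was -2.14 and called lower (FDR 0.0152 by edgeR). Against P14 it was -0.24, and 0.22 without MB replicate 1, neither called. Sox4 was at 410.2, 540.3 and 598 CPM, above every P14 library, with a change of 0.45 against P14 (SE 0.18, FDR 0.0534). Without MB replicate 1 it was 0.59 and called (FDR 0.0123 by edgeR), as it was with DESeq2 (0.45) and after the GC correction (0.85). Sox2 was at 25.9, 64.2 and 34.4 CPM, a change of -0.54 against P7 (SE 0.30, FDR 0.181). Without MB replicate 2, the tumour with the most Sox2, it was -1.01 against P7 and -1.02 against P14, both called. Sox3 was at 0.436, 3.10 and 2.40 CPM and Sox21 at 0.952, 5.52 and 6.36 CPM, and neither was called against P7 (-0.27 and -1.01) or P14. Inside 1 counting set, with MB replicate 1 as the only tumour, both were called lower than in P7 (Sox3 -2.45, FDR 0.0138, and Sox21 -3.17, FDR 8.79e-04, by edgeR). So were Sox2 (-1.22) and Sox8 (-1.91). Without MB replicate 1 the change of Sox3 was 0.20, not called. Sox3 and Sox21 are the members richest in GC, at 66.4% and 58.3% of the longest reference transcript against a median of 50% over genes. MB replicate 1, with the GC slope given above, held 11 and 24 counts of them. That library was also the lowest tumour for Sox11 (46.5% GC) and Sox9 (49.3%), which lie below that median. It was the highest for Sox5 (44.8%) and Sox6 (46.1%). The cause was not tested.

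The gene lists moved in both directions in the tumours. Of the 12 SoxE-linked glial genes, 2 were higher against P7 and 4 lower. Olig2, a factor of oligodendrocyte precursors, rose by 1.21, and Mbp, a main protein of myelin, changed by -3.63 on the log2 scale. Of the 9 astroglial markers 2 were higher and 5 lower, and their sum was 1677 to 2197 CPM in the tumours against 2092 to 4217 in P7. Of the 9 oligodendrocyte lineage markers 2 were higher and 5 lower both against P7 (median -3.63) and against P14 (median -4.94), with sums of 658 to 965 CPM in MB, 947 to 1855 in P7 and 5861 to 6287 in P14. The part of glial cells in the values of Sox6, Sox8 and Sox9 was not tested. Of the 6 granule neuron markers 3 were lower against P7 and 6 against P14, and none was higher. Against P7, all 7 pericyte and fibroblast, all 6 endothelial and all 6 GABAergic interneuron markers were called lower. So were 5 of 6 Purkinje cell, 4 of 5 unipolar brush and nuclear cell and 1 of 5 choroid plexus markers. Of 7 microglia and macrophage markers 3 were higher and none lower. The part of granule neurons and of these other cells in the members' values was not tested. Among the neural progenitor genes, Nes, which encodes nestin, rose from 53.6 ± 10.02 CPM in P7 to 205 ± 53.8 in MB (SD, n = 3, log2 change 1.93, FDR 6.18e-05 by edgeR), and the change of Fabp7 was -2.55. In all, 2 of the 11 were higher and 3 lower. Of the 10 SoxC-linked neuronal genes 1 was higher (Prox1, 1.82) and 4 were lower, led by Stmn2 (-2.11) and Neurod1, a factor of granule neuron differentiation (-1.87). Of the 5 cartilage genes tested 2 were lower, Col9a1 (-2.80) and Col2a1 (-1.77), both collagens. Without MB replicate 1, 3 of the SoxE-linked glial genes were higher and 5 lower, 3 of the neural progenitor genes higher and 3 lower, and 1 of the SoxC-linked genes higher and 4 lower.

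Across the 5 groups, the order of mean levels differed between members. Sox2, Sox3, Sox6 and Sox21 had their highest mean in P1, Sox8 and Sox11 in P14, Sox4 in E15.5, and Sox5 and Sox9 in MB. The lowest mean was that of E15.5 for each member except Sox3, with MB lowest, and Sox4, with P14 lowest. In Sox11 no neighbours in this order differed by more than the larger of their SDs. In Sox4 the E15.5 and MB means did, and the neighbours below them did not. In Sox6 all neighbours did except P1 and P7. In Sox9 the mean of MB exceeded that of P1 by 75.8 CPM, with an SD of 141 in MB.

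The genes most like each member were those with the highest Pearson r of log2 CPM over the 15 libraries, among 13452 genes with a symbol and a mean of at least 1 CPM. The libraries share their groups, and these values are descriptions. For Sox2 they were Acp6 (r = 0.944), Sox21 (0.944) and Emp3 (0.942), and Sox2 was in turn among the 3 for Sox21, with Emilin1 (0.944) and Emp3 (0.943). No other member had another member among its 3. For Sox8 they were Cdc42ep1 and Steap3 (both 0.981) and Prrx2 (0.979), and for Sox4 Csnk1d (0.956), Cux2 (0.955) and Wiz (0.954). For Sox6 they included Cyp1b1 (0.960) and Adamts9 (0.956), for Sox9 they were Slc7a5 (0.962), Slc1a4 (0.940) and Hyal1 (0.938), and for Sox5 Unkl (0.956), Dst (0.953) and Plekhm3 (0.952). The highest values were lower for Sox3 (Tlx3, 0.887) and Sox11 (Xkr7, 0.931).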

How the data were processed

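RNA-seq was analysed in 15 libraries, 3 in each of 5 groups taken from the sample titles. Trimmomatic, TopHat, StringTie, HTSeq and the build mm9 are named in the submitters' processing notes, with no versions, and the strand setting is not given in the sources used here. The authors deposited raw counts per gene, per start site model and per transcript. The gene counts were the main table, since each read counts once. Its 5 summary lines name no gene and were left out: 39.5% to 55.4% of a library's records lay in genes.

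Counts were filtered with filterByExpr (minimum count 10, minimum total 15), scaled with TMM and fitted with edgeR 4.0.16 in R 4.3.3, with 1 mean per group over all 15 libraries (10 residual degrees of freedom). Quasi-likelihood F-tests were adjusted by the Benjamini-Hochberg method over all 15259 genes, and the threshold for a call was an FDR of 0.05. The scripts were tested on simulated data. Standard errors are the log2 change over the root of F. Log2 CPM used a prior count of 2. Symbols came from the reference table, which matched 20358 genes. Positions are those of the deposited transcript table (mm9), and promoter positions are in GRCm38.p6.

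The members and gene lists were chosen with earlier results of these data known. All members are named, and of each list at most the 2 called genes with the largest change in each direction per comparison; some items are not reported here. Alternatives were DESeq2 1.42.0, other scalings, no filter, the other 2 tables, fits of the groups compared, a replicate block, leaving out each library, and fits inside 1 counting set. Inside a set, a lone library is assumed to vary like the other groups. A correction for GC content (loess per library, over 14980 genes) and list counts without P1 replicate 3 or MB replicate 1 were added after seeing the data.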

Additional observations from a re-analysis of the deposited data

How the results depend on the processing

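The counts of members called at P1 against E15.5 (7), P7 against E15.5 (6) and among the 4 ages (6) stayed within 1.5 times under each alternative run. In the leave-one-out fits they were 6 to 7 for each of these 3 comparisons, 0 to 1 for P14 against P1, 1 to 2 for MB against P7 and 1 to 4 for MB against P14. The count for P14 against P1 (1) was 3 in a fit of these groups alone and 2 with the GC correction. For P7 against P1 (0) it was 1 with the GC correction, and for P14 against P7 (0) it was 1 in a fit of these groups alone. The count for MB against P7 (1) was 2 with DESeq2 and in a fit of these groups alone, 4 with the GC correction and 6 inside 1 counting set, where MB replicate 1 is the only tumour. For MB against P14 (2) it was 1 in a fit of these groups alone and 5 inside 1 counting set. The share of all genes called was not taken in the alternative fits, so these counts stand without a background and are no result about the members. Of 1155 values of single members under an alternative, 40 turned their direction, of which 39 were called neither before nor after and 1 (Sox9, MB against P7, inside 1 counting set) became a call. Inside 1 counting set the turned values were -0.26 for Sox5 in P1 against E15.5, -0.082 for Sox4 in MB against P7, -1.04 for Sox9 in MB against P7 and 0.22 for Sox11 in MB against P14. With the GC correction the turned values were -0.13 for Sox5 in P1 against E15.5, 0.075 for Sox11 in P7 against P1, -0.098 for Sox2 in P14 against P7, -0.23 for Sox21 in P14 against P7, -0.11 for Sox8 in P14 against P1, 0.052 for Sox3 in MB against P7, 0.096 for Sox11 in MB against P7 and 0.053 for Sox11 in MB against P14. With upper-quartile scaling the turned values were 0.011 for Sox5 in P14 against P7 and -0.026 for Sox11 in P14 against P1. With a replicate block the turned value was -0.0034 for Sox11 in P14 against P1. The leave-one-out ranges of the members that turned in such a fit follow. In P1 against E15.5 it ran from -0.034 to 0.70 for Sox5. In P7 against E15.5 it ran from -0.17 to 0.49 for Sox3. In P7 against P1 it ran from -0.71 to 0.31 for Sox11. In P14 against P7 they ran from -0.17 to 0.31 for Sox2, from -0.19 to 0.051 for Sox5, from -0.098 to 0.51 for Sox9, from -0.29 to 0.73 for Sox11 and from -0.18 to 0.36 for Sox21. In P14 against P1 they ran from -0.12 to 0.050 for Sox4 and from -0.057 to 0.14 for Sox11. In MB against P7 they ran from -0.76 to 0.20 for Sox3 and from -0.77 to 0.49 for Sox11. In MB against P14 it ran from -0.86 to 0.22 for Sox11. Except where a fit holds fewer libraries, the cause was not tested. Of these values 1095 kept their side of the threshold, 39 became calls and 21 lost one. The start site table could be matched for 6 members only.

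Replicate numbers are shared by all groups, but the deviations of same-numbered libraries correlated between -0.312 and 0.332, so the numbers were not taken to pair libraries. With a replicate block 7 members were called at P1 against E15.5 and 6 at P7 against E15.5, and at MB against P14 Sox5 lost its call (0.70) and Sox6 gained one (-0.60). Low counts limit Sox3 and Sox21, at 11 to 178 and 10 to 498 counts per library.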

Other observations

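Sox18, an endothelial and lymphatic factor of the SoxF group and no member of the set above, was at 59.1, 323 and 347 CPM in MB replicates 1 to 3. In the precursor libraries it was at 1.09 to 21.5 CPM, so each tumour lay above each precursor library. Its log2 change was 4.56 against P7 (SE 0.58, FDR 2.25e-05 by edgeR) and 3.79 against P14 (SE 0.56, FDR 5.22e-05). The other SoxF genes were called lower in the tumours: Sox17 changed by -3.15 and -4.92 and Sox7 by -2.80 and -4.06. All 6 endothelial markers were lower in MB than in P7 and in P14, and their sum was 17.6 to 31.5 CPM in the tumours against 285 to 348 in P7 and 691 to 725 in P14. Prox1, which is known as a lymphatic factor as well as a neural one, was at 269.8 ± 35.4 CPM in MB and at 79.9 ± 16.4 in P14 (SD, n = 3).

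Sox12, the SoxC gene outside the set, was at 223 ± 42.95 CPM in E15.5 precursors and 112 ± 14.1 in P1, then 216 ± 37.9 in P7, 136 ± 15.4 in P14 and 169 ± 74.05 in MB (SD, n = 3). Sox10 was at 13.6, 16.9 and 37.5 CPM in P1 replicates 1 to 3, at 48.1 to 60.4 CPM in P14 and at 10.4 to 29.6 CPM in MB.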
